A study of Bos taurus with 9 samples.

Results

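Autosomal regions of H3K9me3 that were called both before and after butyrate were examined in rumen tissue of Holstein cattle. H3K9me3 is trimethylated lysine 9 of histone H3. Overlapping H3K9me3 peaks of the control list and the butyrate list were merged on chromosomes 1 to 29. The kept regions were chosen by peak positions, namely those merged regions that held an H3K9me3 peak of both lists and overlapped no RNA polymerase II (RNA pol II) peak of either condition. Presence in both lists and absence of RNA pol II are therefore given as a description. Of 2888 merged autosomal regions, 347 (percent called 12.0) held a peak of both lists. Among all merged regions 8.52% overlapped RNA pol II, and 113 of the 347 did and were left out, which left 234 kept regions, or 8.10% of the autosomal regions and part of the 4008 merged regions on all chromosomes. The regions called in one condition only and free of RNA pol II numbered 1110 for control and 1298 for butyrate.

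The tissue was sampled before treatment (control) and after 24 h of butyrate, a product of microbial fermentation in the rumen and an inhibitor of histone deacetylases. Each condition gave 1 ChIP-seq library per antibody, against H3K9me3, H3K27ac, H3K9ac and RNA pol II, and 1 input library served as background. The groups share the breed and the tissue, and the labels do not say how many animals were sampled or whether tissue was pooled. With 1 library per group there were no replicates, so no p-value is given for any difference between conditions, and intervals are 95% intervals for counting error only. The control H3K9me3 library was run on lane 3 and the butyrate library on lane 4, so lane and condition cannot be told apart. Both lists were called against the same input library. The lists hold positions without scores, read numbers or gene names, so the depth behind a peak is unknown, positions are those of the assembly UMD3.1, and no gene is named.

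H3K9me3 is laid down by histone methyltransferases of the SUV39 and SETDB1 families and is read by heterochromatin protein HP1, which compacts chromatin. It is known for marking satellite repeats near centromeres, silenced retrotransposons and clusters of zinc finger genes. Acetylation of H3K27 and H3K9, in contrast, marks active promoters and enhancers, and lysine 9 cannot carry an acetyl group and methyl groups at once. Deacetylases, the targets of butyrate, remove acetyl groups from lysine 9 before it can be methylated.

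The kept regions were short as called. Peaks were called at default settings, and whether neighbouring peaks belong to a broader domain was not tested. Their merged widths ran from 200 to 1604 bp with a median of 339.5 bp (interval of the median 328 to 358), and all 234 together covered 89.5 kb. The quartiles were 284 and 430 bp, and 36 regions (15.4%, 11.3 to 20.6) were wider than 500 bp. Regions called in one condition only had a median of 218 bp in control and 221 bp after butyrate. A region of 2 lists is the union of 2 peaks, and a wide peak has more room to be met by another, so the difference in width follows in part from how the regions were chosen and was not tested.

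A kept region was nearly always 1 peak against 1 peak. This held for 231 regions, while 2 regions joined 2 control peaks and 1 butyrate peak, and 1 region joined 2 peaks of each list. In the 231 pairs the control peak had a median width of 252 bp (239 to 265) and the butyrate peak 281 bp (268 to 299). The butyrate peak was the wider one in 139 pairs (60.2%, 53.7 to 66.3), the control peak in 83, and 9 pairs had equal widths. The median log2 ratio of butyrate to control width was 0.10 (0.03 to 0.17), with quartiles of -0.17 and 0.41. Larger differences were fewer, with 41 pairs in which the butyrate peak was at least 1.5 times as wide and 23 in which the control peak was. As a total, the control peaks of the pairs covered 66971 bp and the butyrate peaks 72785 bp, with 1 library on each side.

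Peaks of the pairs lay close to each other. The shorter peak was fully inside the longer one in 128 pairs (55.4%, 49.0 to 61.7), and at least 50% of the shorter peak was shared in 214 pairs (92.6%, 88.5 to 95.4). The centres were a median of 41.5 bp apart (35 to 51), and in 182 pairs (78.8%) they were at most 100 bp apart. At the edge of the rule, the smallest shared stretch was 7 bp at chr18:7688293-7688685, where both peaks were 200 bp wide. The next was 27 bp at chr18:55443426-55444021, between a control peak of 230 bp and a butyrate peak of 393 bp. Just outside the rule, a butyrate peak at chr17:44940561-44940843 and a control peak at chr17:44940844-44941103 touched with 0 bp between them and shared no base. Of the 2408 regions called in one condition only, 19 had a peak of the other list within 100 bp and 157 (6.52%) within 1000 bp.

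**Figure D1:**
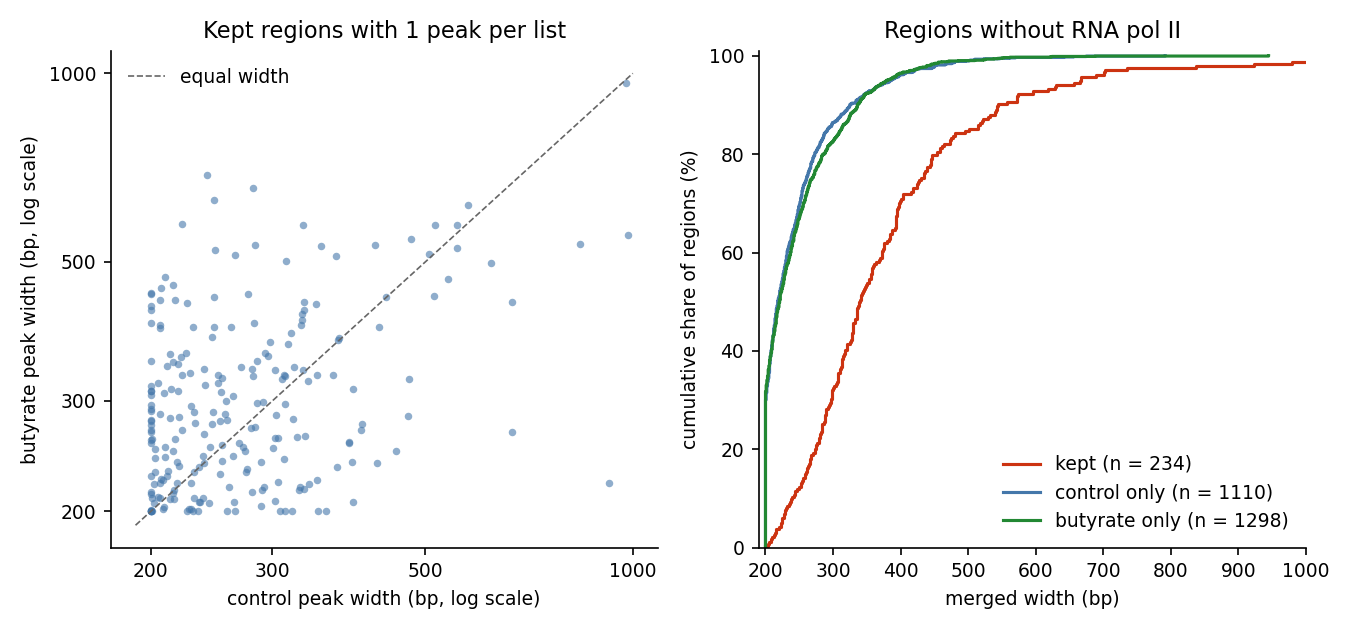
The left panel plots the control against the butyrate peak width (bp, log axes) of the 231 kept regions with 1 peak per list, 1 point per region, with the dashed line at equal width. The right panel plots the cumulative share (%) of merged widths (bp) for kept, control-only and butyrate-only regions, where the kept regions, with a median of 339.5 bp, lie to the right of the other two curves (3 kept regions wider than 1000 bp lie beyond the axis).

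The widest kept regions were spread over 8 chromosomes. The widest, chr23:30914025-30915628 (1604 bp), joined 2 peaks of each condition, and the next, chr19:38417124-38418245 (1122 bp), joined 2 control peaks and 1 butyrate peak. At chr15:29598746-29599782 (1037 bp) a control peak of 984 bp met a butyrate peak of 553 bp with 500 bp in common. These 3 regions had their nearest H3K27ac peak 44.3, 62.7 and 46.7 kb away, so none was next to called acetylation.

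The fourth, chr8:23183818-23184796 (979 bp), was almost the same stretch in both conditions, since all 964 bp of the butyrate peak were shared with a control peak of 979 bp. At chr22:60856262-60857184 (923 bp), on the other hand, a control peak of 923 bp held a butyrate peak of 222 bp near its start. At chr27:905805-906642 (838 bp) the control peak was 838 bp and the butyrate peak 534 bp wide. In these 3 regions and in the one on chromosome 15 the control peak was the wider one, unlike in most of the 231 pairs.

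At chr4:87135623-87136358 (736 bp) the peaks were 577 bp in control and 617 bp after butyrate. The remaining members of the 10 widest were chr18:57678164-57678866 (703 bp), chr23:29728845-29729545 (701 bp) and chr18:57680736-57681424 (689 bp). The first had peaks of 371 bp in control and 512 bp after butyrate, the second 472 and 284 bp with 55 bp shared, and the last 241 and 689 bp. Width before and after butyrate was thus unequal in either direction among the widest regions. Over the 10 widest regions the nearest H3K27ac peak of either condition was between 13.8 and 803.8 kb away, and none carried an H3K9ac or H3K27ac peak.

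Kept regions were grouped along the chromosomes. Of the 234, 18 (7.69%) had another kept region within 1 kb, 50 (21.4%, 16.6 to 27.1) within 10 kb and 90 (38.5%, 32.5 to 44.8) within 100 kb. Linking regions at most 100 kb apart gave 33 clusters on 17 chromosomes, of which 23 were pairs, and left 144 regions alone. Cluster spans ran from 796 bp to 416.5 kb with a median of 11.8 kb. Clustered regions had a median width of 355 bp and lone ones 335.5 bp.

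Any H3K9me3 region, whether kept or called in one condition, was next counted as a neighbour, for kept and other regions alike. A kept region needs peaks of both lists to meet, which may depend on how dense peaks are locally. The difference may thus follow in part from how the regions were chosen, and this was not tested. Another H3K9me3 region lay within 10 kb of 132 kept regions (56.4%) and of 753 of the 2408 regions called in one condition only (31.3%, 29.5 to 33.2), where 35.2% of all autosomal regions had one. The difference was 25.1 percentage points (interval 18.5 to 31.6, Newcombe method), and at 100 kb, where 75.2% of kept, 52.6% of one-condition and 56.1% of all regions had a neighbour, it was 22.6 points (16.4 to 28.1). Regions of one cluster are not independent of each other, which these intervals do not cover. The 113 regions called in both conditions that overlapped RNA pol II had similar shares, 59.3% within 10 kb and 74.3% within 100 kb. Crowding was therefore not particular to the kept regions without RNA pol II. Among regions wider than 300 bp the shares at 10 kb were 58.9% of 158 kept and 44.7% of 376 others, 14.2 points apart (4.89 to 23.1). Even there the kept regions were wider, with a median of 393 bp against 348 bp, so width was not fully matched.

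Within 10 and 100 kb, neighbours called after butyrate only were more frequent around kept regions than those called in control only. Within 10 kb of a kept region lay 117 of 1361 butyrate-only regions (8.60%) and 60 of 1180 control-only regions (5.08%), both counted with and without RNA pol II. Within 100 kb the shares were 22.6% and 14.3%. Without the largest cluster they were 20.8% and 14.2% within 100 kb. Within 1 kb of a kept region the shares were close, 2.13% and 1.86%. Butyrate-only regions were also nearer to H3K9me3 regions of any kind, counted without RNA pol II. Another H3K9me3 region lay within 10 kb of 34.0% of them and of 28.1% of control-only regions, and within 100 kb of 56.5% and 47.9%. The autosomal H3K9me3 list was itself larger after butyrate, with 1710 peaks against 1536 in control. The 33 clusters together held 111 control and 149 butyrate H3K9me3 peaks, and the largest cluster alone held 13 and 33 of these. Of these clusters 13 had more peaks after butyrate, 5 had fewer and 15 had equal numbers, so the excess was in a minority of them.

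The largest cluster lay at chr27:28512861-28929396 and held 12 kept regions over 416.5 kb. The control list had 13 H3K9me3 peaks in it and the butyrate list 33, of which 21 formed regions of butyrate only. The 12 kept regions were 205 to 388 bp wide and between 0.511 and 93.5 kb apart, with a median gap of 31.7 kb. No H3K27ac or H3K9ac peak of either condition lay inside the cluster, and the nearest H3K27ac peaks were 16.7 kb outside it in control and 16.8 kb after butyrate. A single RNA pol II peak, of control, lay inside, 34.0 kb from the nearest kept region. The same stretch thus had more H3K9me3 peaks after butyrate while called acetylation stayed outside it in both lists.

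**Figure D2:**
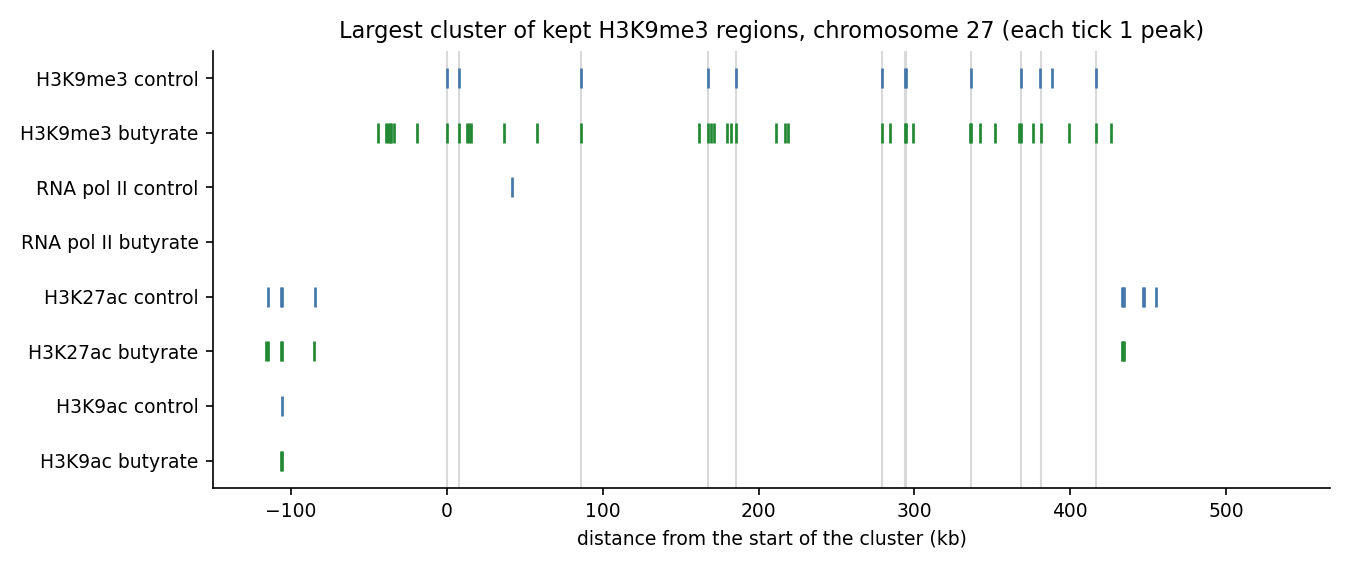
Peaks of the 8 lists in and around the largest cluster are plotted by distance from the start of the cluster (kb), 1 tick per peak and 1 row per antibody and condition, with grey lines at the 12 kept regions. The butyrate H3K9me3 row holds 33 peaks inside the cluster against 13 in control, and the acetylation rows are empty between the first and the last kept region.

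The second cluster, chr1:145329668-145442260, had 5 kept regions, with 5 control and 12 butyrate H3K9me3 peaks. In 4 of its 5 kept regions the butyrate peak was the wider one, at 522 against 248 bp, 502 against 314 bp, 573 against 332 bp and 397 against 206 bp, while the remaining one had 241 bp after butyrate and 254 bp in control. The cluster at chr8:23174348-23184796 went the other way. Its 4 kept regions lay within 10.4 kb, the control list had 6 peaks there and the butyrate list 4, and each of the 4 control peaks was wider than its butyrate partner, for instance 403 against 270 bp.

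At chr18:57618711-57731319 there were 4 kept regions with 8 control and 5 butyrate peaks, and at chr28:2366143-2443139 there were 4 with 4 control and 6 butyrate peaks. None of these 5 clusters held an H3K27ac or H3K9ac peak of either condition. Among all 33 clusters 28 held no H3K27ac peak and 32 no H3K9ac peak. Many clusters were short, however, with a median span of 11.8 kb. The autosomal mean in control was 14.7 H3K27ac and 1.62 H3K9ac peaks per Mb, so a short stretch often holds none. Whether the clusters differed in this from other stretches of like length was not tested.

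By chromosome, chromosome 27 had the highest density of kept regions, 0.364 per Mb from 16 regions, followed by chromosome 18 with 0.288 per Mb from 19. Chromosome 28 had 0.216 per Mb and chromosome 23, which carries the bovine major histocompatibility complex, 0.210 per Mb. The median over the 29 chromosomes was 0.0833 per Mb. Chromosome 26 had no kept region and chromosome 12 had 1. Without its cluster of 12, chromosome 27 would have 4 regions, so its rank rested on that cluster. Relative to all H3K9me3 regions of a chromosome, the kept ones made 16.9% on chromosome 28 and 16.5% on chromosome 27, against 2.08% on chromosome 12 and 9.09% on chromosome 18, where H3K9me3 regions were dense in general (3.17 per Mb). These counts per chromosome are small and no intervals were computed for them, so the order of the chromosomes was not tested.

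Kept regions were frequent near the ends of chromosomes, as were H3K9me3 regions in general. The first 10% of the chromosome span held 42 of them (17.9%, 13.6 to 23.4) and the last 10% held 48 (20.5%, 15.8 to 26.1), while each 10% between them held from 4.70% to 12.8%. Regions called in one condition only had 14.2% (12.8 to 15.6) and 15.5% (14.1 to 17.0) at these ends, and all autosomal regions 16.2% and 15.3%. Cattle autosomes are acrocentric, with the centromere close to one end. The first 5 Mb, which make 5.78% of the span, held 30 kept regions (12.8%, 9.13 to 17.7), against 8.47% of the regions called in one condition only and 9.45% of all autosomal H3K9me3 regions. The difference from one-condition regions was 4.35 points (0.474 to 9.35), but at widths over 300 bp it was 0.855 points (-4.66 to 7.47). Of the 30, 7 were on chromosome 14 and 4, all of the chromosome 28 cluster, on chromosome 28. The end of a chromosome was taken as its last peak in any list, so a region near the end helps to define it.

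Of the 30, 10 regions on 7 chromosomes lay in the first 100 kb, which make 0.116% of the span. These were 4.27% (2.34 to 7.69) of the kept regions, against 1.58% (1.15 to 2.16) of the regions called in one condition only and 1.94% of all autosomal regions. Above 300 bp the shares were 5.06% (2.59 to 9.67) and 3.72% (2.23 to 6.15), with overlapping intervals. The one-condition regions were 34 called after butyrate only (2.62%, 1.88 to 3.64) and 4 called in control only (0.360%, 0.140 to 0.923). The 10 were picked out after their positions had been seen. The last 100 kb held 8 kept regions (3.42%, 1.74 to 6.60), against 0.498% (0.285 to 0.869) of one-condition regions and 0.727% of all. A higher share at the tip was thus not particular to the start, although the last peak defines the other end. On chromosome 2 a kept region began at the first base, chr2:1-435, where the control peak was 217 bp and the butyrate peak 435 bp wide, and a second followed at chr2:1153-1463 with 200 and 311 bp. Chromosome 15 had a similar pair at chr15:3939-4364 and chr15:8488-8863, and chromosome 16 at chr16:11649-12041 and chr16:14542-14940. Chromosomes 13, 18, 19 and 25 had 1 each. In 8 of the 10 the butyrate peak was the wider one. Their nearest H3K27ac peaks were 88.7 to 5159.7 kb away, but RNA pol II peaks lay 2.41 and 6.95 kb from those on chromosome 15 and 74 bp and 2.97 kb from those on chromosome 16. The other 6 had their nearest RNA pol II peak at least 240.2 kb away.

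**Figure D3:**
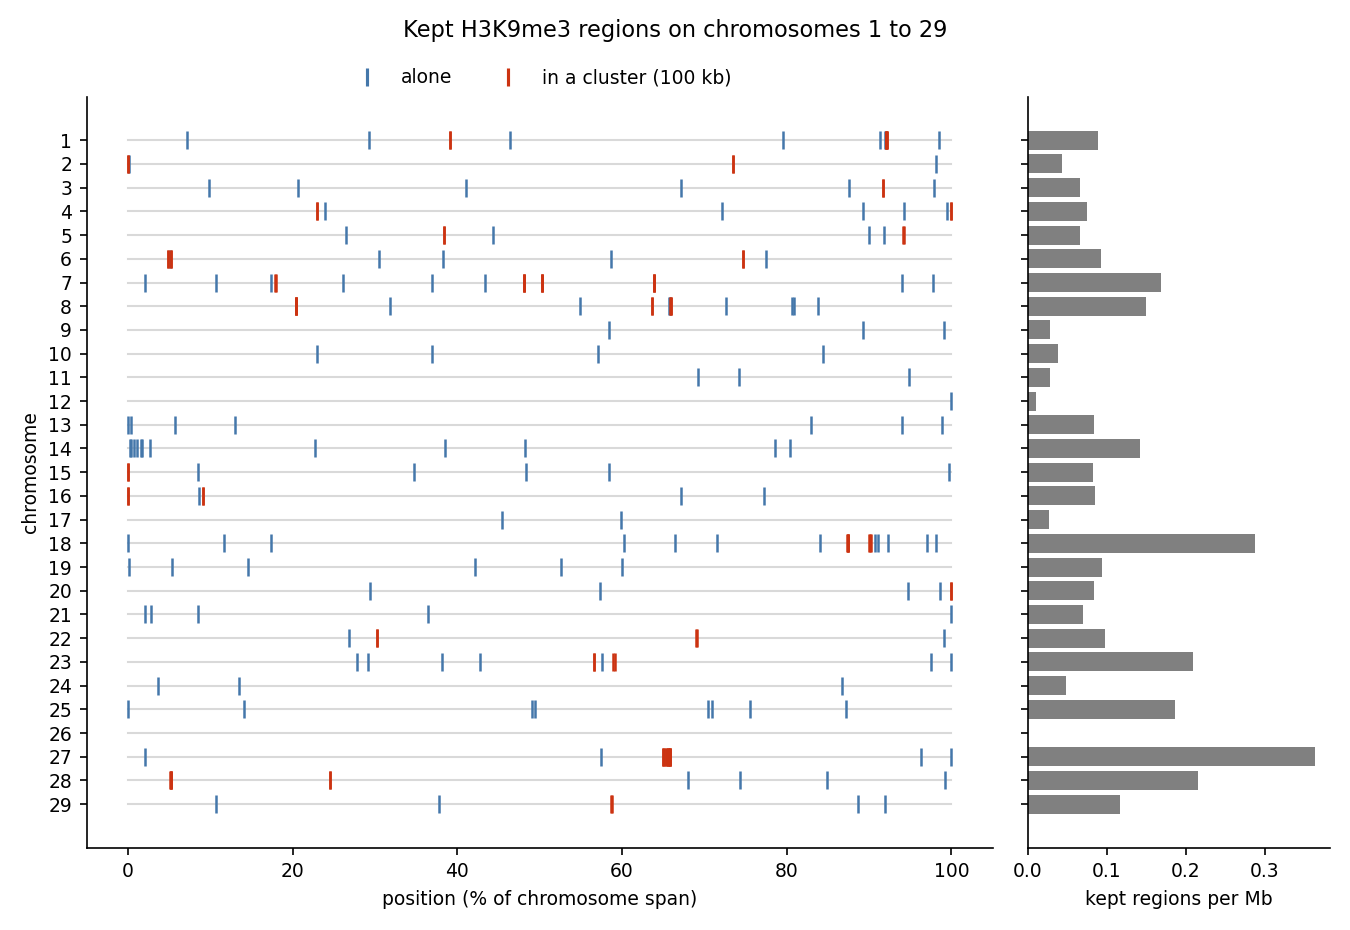
Each tick is 1 of the 234 kept regions, placed by its position in percent of the chromosome span, in red where another kept region lies within 100 kb and in blue where none does. Bars give kept regions per Mb for each chromosome, highest on chromosome 27 (0.364) and zero on chromosome 26.

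Called acetylation on kept regions was rare. An H3K27ac peak overlapped 5 of the 234 in control (2.14%, 0.916 to 4.90) and 1 after butyrate (0.427%, 0.0755 to 2.38). In regions called in one condition only the shares were 1.37% and 0.831%. In all autosomal H3K9me3 regions they were 3.39% and 2.15%. Those include regions that overlap RNA pol II, which the choice of kept regions removed, so this contrast is in part fixed by the rule. The 6 regions were different ones in each condition. Among the 2408 one-condition regions 33 overlapped H3K27ac in control, 20 after butyrate and 40 in either. H3K27ac in both conditions was thus rare there too, so its absence among 234 kept regions does not set them apart. Taking either condition, 2.56% (1.18 to 5.48) of kept regions overlapped H3K27ac, against 1.66% (1.22 to 2.25) of regions called in one condition only and 3.95% of all. The difference of kept from one-condition regions, 0.903 points (-0.602 to 3.85), was within counting error. The H3K27ac peaks of either condition covered 0.720% of the chromosome span. That is a share of single positions and not a measure like the shares of regions, since a wider region meets a peak more easily.

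The 5 regions with a control H3K27ac peak were on chromosomes 5, 6, 7, 13 and 16, at chr5:109099321-109099614, chr6:5796891-5797246, chr7:29458847-29459239, chr13:4846454-4846898 and chr16:7462442-7462781. They were named after their values had been seen. In the butyrate list the nearest H3K27ac peak was 205 bp away for the one on chromosome 6, 23.6 and 26.6 kb away for those on chromosomes 13 and 16, and 194 and 658 kb away for those on chromosomes 5 and 7. The region with a butyrate peak, chr24:54394863-54395376, had its nearest control H3K27ac peak 187.5 kb away.

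H3K9ac, which competes with H3K9me3 for the same lysine, overlapped 2 kept regions in control (0.855%) and 1 after butyrate (0.427%). In regions called in one condition only the shares were 0.581% and 0.374%. In all autosomal H3K9me3 regions, which include those that overlap RNA pol II, they were 1.77% and 2.04%. In either condition that made 3 kept regions (1.28%, 0.437 to 3.70). Among all autosomal H3K9me3 regions the share was 2.77%, and among regions called in one condition only it was 0.664% (0.409 to 1.08). The control H3K9ac peaks were at chr5:109099321-109099614, which also had control H3K27ac, and at chr10:23934213-23934500. The butyrate H3K9ac peak was at chr9:61713238-61713668. None of the 3 regions had H3K9ac in both conditions, which was also rare in one-condition regions. There 14 of 2408 overlapped H3K9ac in control, 9 after butyrate and 16 in either.

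The 113 regions kept in both conditions that overlapped RNA pol II differed from these in called acetylation. The exclusion of RNA pol II, which is often found with acetylation, defines the groups, however. Of the 113, 31.0% overlapped an H3K27ac peak and 34.5% an H3K9ac peak of either condition. Within 10 kb they had H3K9ac peaks at 11.0 times the autosomal mean density in control and 12.3 times after butyrate. RNA pol II was also near some kept regions without touching them, within 1 kb of 10 and within 10 kb of 24 (10.3%, 6.99 to 14.8), against 7.89% (6.88 to 9.04) of regions called in one condition only. The share of all autosomal regions, 15.9%, includes those that overlap RNA pol II, which the choice of kept regions removed.

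The surroundings of kept regions were then examined. Shares of all autosomal regions given here and below include those that overlap RNA pol II. The nearest H3K27ac peak of either condition was a median of 72.4 kb away (55.2 to 93.8), against 49.6 kb (46.0 to 54.1) for regions called in one condition only. These were 40.2 kb (36.6 to 43.8) for control-only and 60.0 kb (54.0 to 65.4) for butyrate-only regions, the latter overlapping the kept interval. Among kept regions the median was 95.2 kb in clusters and 60.2 kb for lone ones. Within 10 kb of an H3K27ac peak lay 36 kept regions (15.4%, 11.3 to 20.6), close to the 15.7% of all positions of chromosomes 1 to 29 that lie so near one, and to the 17.8% (16.3 to 19.4) of one-condition regions and the 19.4% of all autosomal regions. Within 100 kb lay 137 (58.5%, 52.1 to 64.7), against 67.3% (65.4 to 69.1) of one-condition regions, 67.2% of all and 50.9% of positions. The share was 71.2% (68.4 to 73.8) for control-only and 63.9% (61.3 to 66.5) for butyrate-only regions, and the latter interval overlapped that of kept regions. The difference of kept from one-condition regions at 100 kb was -8.73 points (-15.4 to -2.32), and -8.86 points (-17.9 to -0.0497) at widths over 300 bp. Regions of one cluster are not independent, which neither these intervals nor those for the first 5 Mb cover. Within 10 kb of an H3K9ac peak lay 11 kept regions (4.70%, 2.64 to 8.22), against 5.69% (4.83 to 6.69) of one-condition regions and 7.93% of all. For H3K9ac the shares within 100 kb were 25.2% (20.1 to 31.1) of kept and 35.1% (33.2 to 37.0) of one-condition regions, 36.0% of all and 25.6% of positions.

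**Figure D4:**
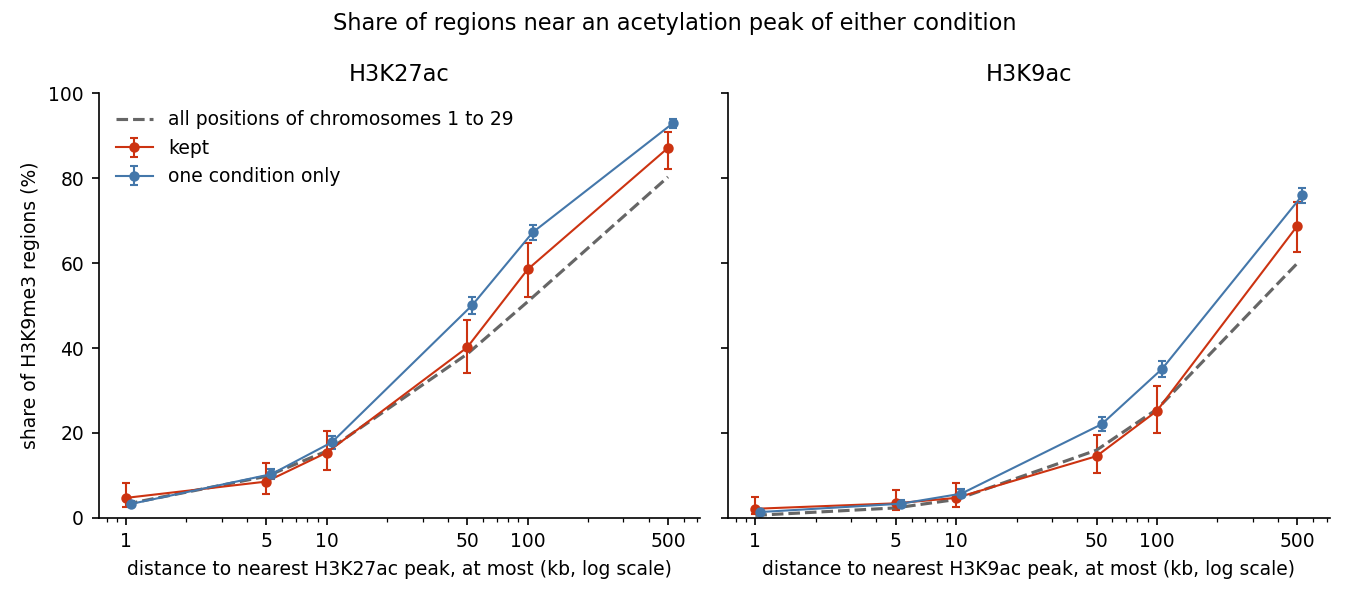
Points give the share (%) of kept and of one-condition regions whose nearest H3K27ac or H3K9ac peak of either condition lies at most the distance on the log x axis (kb) away, with 95% Wilson intervals, and the dashed line gives the share of all positions of chromosomes 1 to 29. At 100 kb the kept regions reach 58.5% for H3K27ac and the one-condition regions 67.3%.

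At the shortest distance the shares of kept and one-condition regions had overlapping intervals. Within 1 kb of an H3K27ac peak lay 11 of them (4.70%, 2.64 to 8.22), against 3.28% (2.64 to 4.07) of one-condition regions, 5.75% of all and 3.22% of positions. The number of peaks in wider windows was then counted. Within 10 kb on each side of the kept regions there were 46 control H3K27ac peaks, 9.81 per Mb or 0.666 of the autosomal mean (exact Poisson interval 0.487 to 0.888). After butyrate there were 33, 7.04 per Mb or 0.539 of the mean (0.371 to 0.757). Around one-condition regions the ratios were 0.929 (0.860 to 1.00) and 0.930 (0.856 to 1.01). Around the 113 regions left out for RNA pol II they were 1.98 (1.53 to 2.51) and 1.90 (1.44 to 2.46). The contrast of kept regions with the mean is therefore in part fixed by the rule. One-condition regions were also taken without RNA pol II. Among regions wider than 300 bp the ratios were closer, with 0.724 (0.502 to 1.01) for kept and 0.830 (0.670 to 1.02) for one-condition regions in control, and 0.577 (0.370 to 0.858) and 0.786 (0.621 to 0.981) after butyrate. The control ratio of kept regions was then within counting error of the mean. Windows of neighbouring kept regions overlap, and with 1 region per cluster the ratios were 0.689 and 0.626. For H3K9ac, with 7 and 9 peaks within 10 kb, the ratios were 0.919 (0.369 to 1.89) and 1.13 (0.517 to 2.15), so no difference from the mean was detectable.

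Farther out the ratio rose. Within 100 kb it was 0.855 (0.786 to 0.928) in control and 0.748 (0.680 to 0.821) after butyrate. With 1 region per cluster the 100 kb ratios were 0.944 (0.861 to 1.03) and 0.849 (0.766 to 0.938), so that of control was then within counting error of the mean. Within 1000 kb the ratio was above the mean at 1.17 and 1.09. Around one-condition regions the ratios within 1000 kb were higher, 1.37 and 1.35. Of the kept regions, 26 (11.1%, 7.70 to 15.8) lay in windows of 1 Mb without any H3K27ac peak of either condition. This applied to 6.40% (5.49 to 7.44) of one-condition regions and 6.68% of all autosomal H3K9me3 regions. Among all 2523 windows of 1 Mb, 493 (19.5%) held no H3K27ac peak, a larger share than that of kept regions. H3K9ac was not counted in these windows.

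Between the conditions, H3K27ac peaks within 100 kb of kept regions numbered 571 in control and 443 after butyrate, a log2 ratio of -0.37. Over chromosomes 1 to 29 the log2 ratio was -0.17, and within 100 kb of one-condition regions it was -0.18. Peaks near more than 1 region were counted once for each. H3K9ac peaks within 100 kb of kept regions numbered 64 and 63, a log2 ratio of -0.02, against 0.06 over the chromosomes. For both acetylations the control library was run on lane 1 and the butyrate library on lane 3, so these ratios cannot be told apart from lane, and they rest on 1 library per group.

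**Figure D5:**
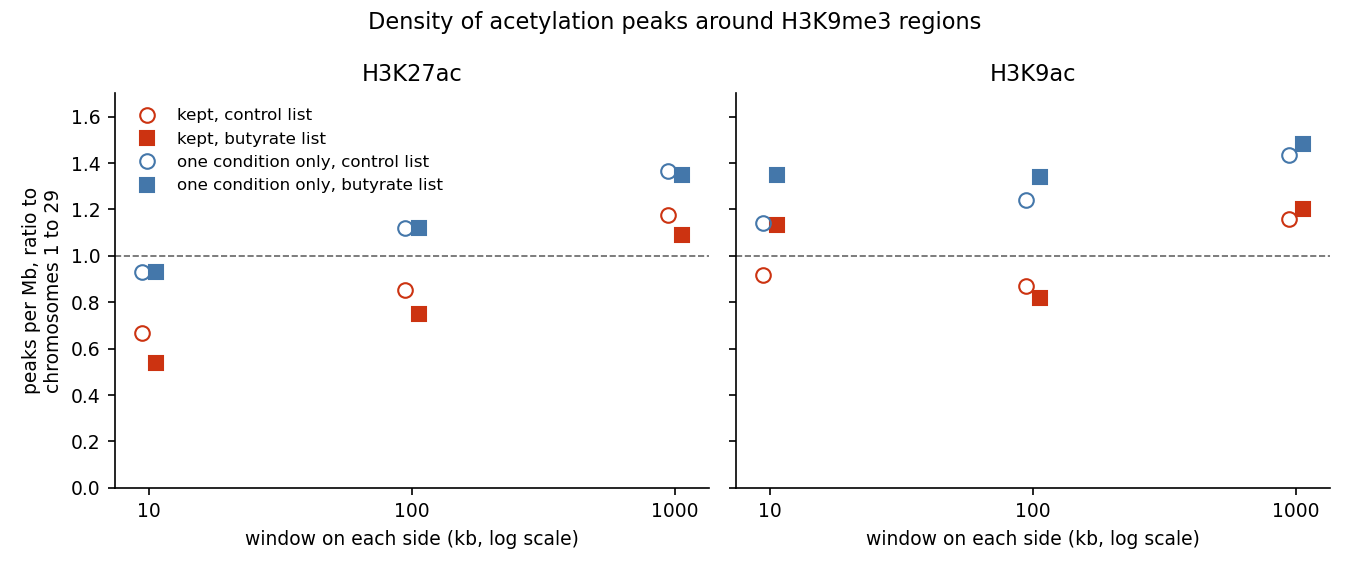
Symbols give the number of acetylation peaks per Mb in windows of 10, 100 and 1000 kb on each side of kept and one-condition regions, divided by the mean over chromosomes 1 to 29, with open circles for control and filled squares for butyrate lists and the dashed line at the mean. For H3K27ac the kept regions lie at 0.666 and 0.539 within 10 kb and above 1 within 1000 kb.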

How the data were processed

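ChIP-seq peak lists of 8 libraries from rumen tissue were analysed, 1 per antibody and condition. Libraries were grouped by their labels. Per the methods, clean reads were aligned with BWA to UMD3.1, reads with a unique alignment were retained, and the authors called peaks with MACS2 at default settings against 1 input library, which was not analysed here. The labels give reads of 75 nt. The deposited lists hold 3 columns (chromosome, start, end) and no other measured unit. Read depth per library was not used. Start and end were read as the first and last base of a peak counted from 1, since a peak starts at 1, and the smallest peak of every list is then 200 bp wide.

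Regions, overlaps (at least 1 bp) and gaps were computed with numpy 2.4.6 and pandas 2.3.3, and the functions were tested on simulated intervals. Shares carry Wilson intervals, medians order-statistic intervals and differences of shares Newcombe intervals (scipy 1.17.1, statsmodels 0.14.6). Chromosome span was the last position of any peak, 2.51 Gb in all. Shares of positions near a peak were counted exactly. No test between conditions was possible with 1 library per group.

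The members, classes and comparisons were chosen with earlier results of these data known. Named regions were, by rule, the 10 widest, the 5 largest clusters, those with H3K9ac, and the regions at the edge of the rule. The gene table at hand is of another assembly, so no gene or sequence is given.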

Additional observations from a re-analysis of the deposited data

Results flagged for a closer look

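The X chromosome lies outside the comparisons above. On X, 150 H3K9me3 regions were called in both conditions without an RNA pol II peak on them, which stands out because a single chromosome held so many beside 234 on chromosomes 1 to 29. They came from 1110 merged regions on X, of which 272 were called in both conditions, and their median width was 383 bp. Chromosomes 1 to 29 together held 2888 merged regions, of which 12.0% were called in both conditions and 8.10% were kept. H3K9me3 regions of all kinds were thus many on X, and both of these shares were also larger there. No difference between X and the autosomes was tested.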

How the results depend on the processing

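Leaving out the largest cluster was added with the data in view. Of 54 values under 6 settings for 9 results, 43 stayed within the interval of the reported value, or within 1.5 times for the number of regions, and for the others the cause was not tested. These 43 include 2 that could not move, since the share of regions called in both conditions does not use RNA pol II. Restricting each list to its wider peaks, from the median width upwards, left 107 kept regions with a median of 393 bp. In that setting 13.3% of autosomal regions were called in both conditions, 24.3% of kept regions were in clusters and 22.4% were within 10 kb of H3K27ac. With RNA pol II regions kept in, the median width was 360 bp, 45.2% were in clusters, 24.2% were within 10 kb of H3K27ac, and 11.8% overlapped H3K27ac and 12.1% H3K9ac. Merging peaks at most 500 bp apart gave a median width of 376 bp. No paired analysis was possible because every antibody had a single library per condition, and leaving out a replicate was not possible for the same reason. Width replaced a score, so a stricter enrichment cutoff was not tried.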
